A study of Mus musculus with 8 samples.

Results

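The genes described here are Alox5, which encodes 5-lipoxygenase, and 9 further genes of eicosanoid synthesis, namely Alox5ap, Alox15, Lta4h, Ltc4s, Pla2g4a, Ptgs1, Ptgs2, Ptges and Tbxas1. They were chosen by gene symbol, and 9 of the 10 had 1 probe set each among the 22206 probe sets of the array. No probe set was named for Ptgs1 in the platform annotation used here. Alox5 itself was chosen from the data, as 1 of the 7 probe sets (0.0315% of those tested) called for KO minus WT under IL-4 (adjusted p under 0.05, limma). This call was lost without KO1, without KO2 and without the dimmest 40% of probe sets, with differences of 1.89, 2.18 and 2.03. Values of that comparison are therefore given below as a description, with no test, for all members.

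RNA was measured on 8 mouse Clariom S arrays in RAW264 cells, a mouse macrophage-like line. Clones established with CRISPR/Cas9 were either Gpr137b knockout (KO1 and KO2) or Gpr137b wild type (WT1 and WT2). Each was sampled after 48 h with IL-4 and also without it (untreated). Each IL-4 or genotype comparison shares arrays with others. This gave 4 groups of 2 arrays, KO with IL-4, KO without IL-4, WT with IL-4 and WT without IL-4, so that a difference between genotypes and one between clones cannot be told apart. The medium was exchanged for a serum-deprived one at the time of IL-4 treatment, and the paper does not state this for cells without IL-4. Signals below are the log2 of the deposited intensities, so that a difference of 1 is a 2-fold change. Background was set on each array at the 95th percentile of 23 antigenomic control probe sets, and lay between 6.64 and 6.78. Signals of different probe sets cannot be ranked against each other.

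Eicosanoids are lipid mediators made from arachidonic acid, which cytosolic phospholipase A2 releases from membranes. In the leukotriene branch, 5-lipoxygenase works together with its activating protein to make leukotriene A4, which leukotriene A4 hydrolase converts to leukotriene B4 and leukotriene C4 synthase to leukotriene C4. In the prostanoid branch, the cyclooxygenases make prostaglandin H2, from which separate synthases make prostaglandin E2 and thromboxane. Macrophages are a well-known source of both kinds of mediator, and IL-4 is a cytokine that alters macrophages through its receptor and Stat6.

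The 250 bases before the annotated start are shown for Alox5 and Ltc4s, the members that were brightest in KO relative to WT cells, and for Ptgs2, the member that lay farthest apart between the WT clones. They are from RefSeq (GRCm38.p6), run 5′ to 3′ on the strand of the gene, and capitals mark the GC box GGGCGG or its reverse complement.
Alox5, chr6:116461179-116461428, minus strand: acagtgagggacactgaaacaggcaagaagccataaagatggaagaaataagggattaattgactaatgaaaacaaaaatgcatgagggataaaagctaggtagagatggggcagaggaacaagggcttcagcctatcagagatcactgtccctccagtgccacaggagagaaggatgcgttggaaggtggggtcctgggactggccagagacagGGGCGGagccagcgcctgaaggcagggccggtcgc
Ltc4s, chr11:50238533-50238782, minus strand: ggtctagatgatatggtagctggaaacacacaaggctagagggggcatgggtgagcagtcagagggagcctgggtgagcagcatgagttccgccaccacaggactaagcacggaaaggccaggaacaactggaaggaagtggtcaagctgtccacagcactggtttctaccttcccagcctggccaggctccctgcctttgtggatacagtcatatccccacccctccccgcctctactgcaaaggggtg
Ptgs2, chr1:150099781-150100030, plus strand: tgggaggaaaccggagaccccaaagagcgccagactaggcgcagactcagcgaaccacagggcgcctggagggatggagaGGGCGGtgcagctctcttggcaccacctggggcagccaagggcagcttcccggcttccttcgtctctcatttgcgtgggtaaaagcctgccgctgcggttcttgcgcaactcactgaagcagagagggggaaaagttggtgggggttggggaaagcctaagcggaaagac
The GC box was found once for Alox5, starting 35 bases before the start, once for Ptgs2, at 170 bases, and not for Ltc4s. Of 32851 promoters of this length, 32.7% held it. A further 3 motifs were sought on both strands and were in none of these 3 windows. They were TTC and GAA with 4 bases between, the spacing that Stat6 is known to bind (in 5.85% of all promoters), the TATA box TATAAA (12.4%) and GAGGAAGT, of the kind that the macrophage factor PU.1 binds (2.44%). Of the 8 members that the RefSeq table held, Ptges, at 197 bases, and Tbxas1, at 121 bases, had the Stat6 spacing. These matches are a description of the letters and show no binding.

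RAW264 identity was checked first. Of 9 measured macrophage markers, 8 were above background on all 8 arrays, among them Csf1r, Itgam, Adgre1 and Spi1, and Mertk on none. No marker of mast cells (6 measured), B cells (4), T cells (4) or fibroblasts (3) was above background on any array. Of 4 platelet and megakaryocyte markers, Pf4 and Ppbp were above background on none, Gp9 on 2 arrays and Itga2b on 7, with a signal of 6.57 to 7.92. Gpr137b read between 10.00 and 11.12 on KO arrays and between 10.32 and 11.93 on WT arrays, so that these overlapped. The part of the gene that was edited is not stated, and a probe set outside it checks nothing about the labels. The WT clones lay farther apart than the KO clones. Between KO1 and KO2, 326 probe sets with IL-4 and 359 without it were at least 2-fold apart, against 1338 and 2139 between WT1 and WT2. The mean raw intensities that the paper lists, from before normalization, also spread more over the WT arrays than over the KO arrays. They were lowest on the WT1 array without IL-4 and highest on the WT1 array with it. The part of such array differences in the clone distance was not tested.

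Alox5, whose enzyme starts leukotriene synthesis, was brighter in KO than in WT cells under both treatments and dimmer with IL-4 in all 4 clones. Under IL-4 its signal was 13.78 in KO1 and 13.49 in KO2, against 11.62 in WT1 and 11.59 in WT2. In untreated cells it was 14.34 in KO1 and 14.49 in KO2, against 13.07 in WT1 and 12.75 in WT2. No KO array overlapped a WT array, and even the KO arrays with IL-4 lay above the WT arrays without it. The KO minus WT difference was 2.03 with IL-4, or 4.09-fold, and ranged from 1.87 to 2.19 over the 4 pairs of a KO with a WT clone. Without IL-4 it was 1.50, or 2.84-fold, and ranged from 1.27 to 1.74.

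The order of the group means of Alox5 was KO without IL-4 (14.42 ± 0.11), KO with IL-4 (13.64 ± 0.21), WT without IL-4 (12.91 ± 0.23) and WT with IL-4 (11.60 ± 0.02; SD, n = 2 clones each). Neighbours in this order did not overlap. By clone, the log2 difference with minus without IL-4 was −0.56 in KO1, −1.001 in KO2, −1.45 in WT1 and −1.16 in WT2, a mean of −1.04 ± 0.37 (SD, n = 4 clones). The arrays with IL-4 are also those that chose Alox5, and no test of its IL-4 effect is given. The neutrophil marker S100a8 was above background on 3 arrays, all of KO clones, at 10.40 in KO2 and 7.68 in KO1 without IL-4 and at 7.22 in KO2 with IL-4. Summed over 5 neutrophil markers, the linear signal was 288 to 318 in KO cells with IL-4, 471 to 1536 in KO cells without it, 237 to 297 in WT cells with IL-4 and 278 to 318 in WT cells without it. Of the other markers, Mpo was above background on 2 arrays, both of WT clones (7.08 in WT1 with IL-4 and 7.04 in WT2 without it), S100a9 on 1 (6.90 in KO1 without IL-4), and Elane and Camp on none. The part of these markers in the Alox5 signal was not tested. In such bulk RNA, fewer cells of a kind and less RNA per cell cannot be told apart.

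**Figure D1:**
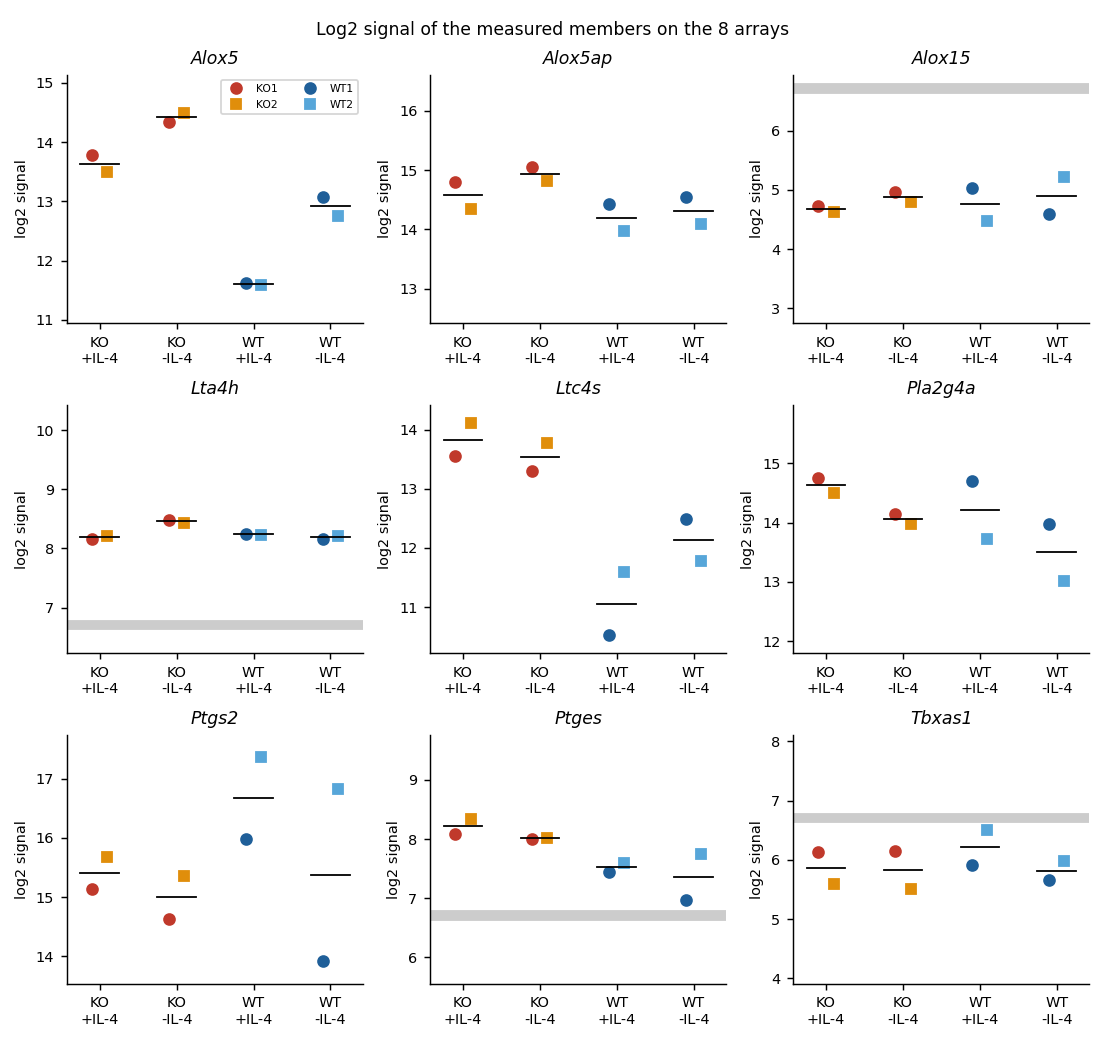
Log2 signal (vertical axis) of the 9 measured members on the 8 arrays by group, with a point for each clone, a line at the mean of the 2 clones and a grey band at the background (6.64 to 6.78). Each panel spans the same number of log2 units. Alox5, Ltc4s and Ptges are brighter on all KO arrays than on all WT arrays, while Alox15 and Tbxas1 lie below background. Of all probe sets, 17.9% had both KO above both WT arrays with IL-4 and 14.1% without it. The share that did so over all arrays together was not counted, and Alox5 was chosen for such a difference.

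Alox5ap, which encodes the membrane protein that presents arachidonic acid to 5-lipoxygenase, showed the same order with smaller differences. With IL-4 it read 14.81 in KO1 and 14.34 in KO2, against 14.42 in WT1 and 13.97 in WT2, and these groups overlapped. Without IL-4 it read 15.06 and 14.81 in the KO clones, against 14.54 and 14.09 in the WT clones, and these did not overlap. The KO minus WT difference without IL-4 was 0.62 ± 0.28 (SE, adjusted p = 0.993 from limma). The signal was lower with IL-4 in all 4 clones, and the mean difference was −0.24 ± 0.16 (SD, n = 4 clones, adjusted p = 0.775 from limma), which did not pass.

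Ltc4s, which encodes leukotriene C4 synthase, had the largest KO minus WT difference of the members under IL-4. There it read 13.55 in KO1 and 14.11 in KO2, against 10.52 in WT1 and 11.60 in WT2, a difference of 2.77 or 6.81-fold (1.95 to 3.59 over the 4 pairs of clones). Without IL-4 it read 13.29 in KO1 and 13.78 in KO2, against 12.49 in WT1 and 11.79 in WT2. As for Alox5, all KO arrays lay above all WT arrays. The difference without IL-4 was 1.40 ± 0.41 (SE, 95% interval 0.47 to 2.33) and did not pass over all probe sets (adjusted p = 0.993 from limma).

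The clones differed in how Ltc4s read with IL-4. It was higher with than without IL-4 by 0.25 in KO1 and 0.33 in KO2, whereas the difference was −1.97 in WT1 and −0.19 in WT2. The IL-4 effect was 0.29 ± 0.41 in KO cells (SE, adjusted p = 1.00 from limma) and −1.08 ± 0.41 in WT cells (SE, adjusted p = 1.00 from limma). The difference of these effects, KO minus WT, was 1.37 (95% interval 0.05 to 2.69) and did not pass (adjusted p = 1.00 from limma). These errors and this interval come from the fit without a block, which ignores the pairing of the arrays of a clone. With the clone as a fixed replicate block the difference did not pass either. Most of the WT effect was in WT1, and without WT1 the difference of effects was 0.48. Over the 4 clones the mean IL-4 effect was −0.39 (adjusted p = 0.884 from limma), and without WT1 it turned to 0.13.

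Lta4h, the gene of leukotriene A4 hydrolase, varied least of the members, by 0.32 over all arrays. Under IL-4 it read 8.17 in KO1 and 8.21 in KO2, against 8.25 in WT1 and 8.23 in WT2. Untreated, the KO clones read 8.49 and 8.43, against 8.17 and 8.21 in the WT clones. KO arrays thus lay above WT arrays without IL-4 and below them with IL-4, where KO minus WT was −0.05. The difference without IL-4 was 0.27 ± 0.19 (SE, adjusted p = 0.993 from limma). Among the leukotriene synthesis genes, KO minus WT was thus over 1 for Alox5 and Ltc4s under both treatments and under 1 for Alox5ap and Lta4h.

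Alox15, a lipoxygenase gene that IL-4 is known to raise in human monocytes, was not above background on any array. Its signal lay between 4.48 and 5.22, with IL-4 between 4.63 and 4.73 in KO cells and between 4.48 and 5.04 in WT cells. Both groups of each comparison were below background, so that its differences, which enter the plots and medians, are not read as changes.

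**Figure D2:**
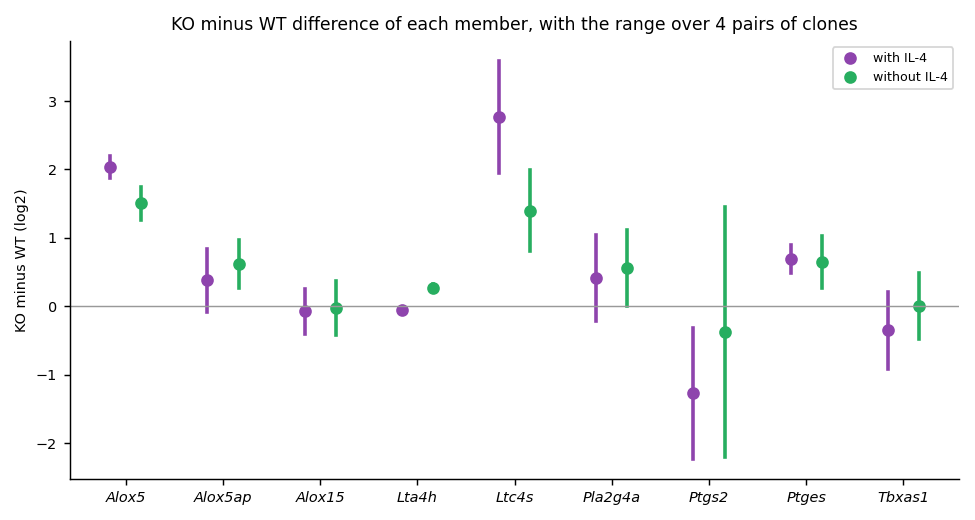
KO minus WT difference (log2, vertical axis) of each member with IL-4 and without IL-4. Points are differences of group means (n = 2 clones each) and bars run over the 4 pairs of a KO with a WT clone. The bars of Alox5, Ltc4s and Ptges lie above 0 under both treatments, and that of Ptgs2 without IL-4 runs from −2.20 to 1.45. Such a bar above 0 was found for 17.9% of all probe sets with IL-4 and for 14.1% without it.

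Pla2g4a, the gene of the cytosolic phospholipase A2 that releases arachidonic acid, was higher with IL-4 by nearly the same amount in each clone. Under IL-4 its signal was 14.76 in KO1, 14.50 in KO2, 14.71 in WT1 and 13.72 in WT2. Untreated, it was 14.14 in KO1, 13.97 in KO2, 13.98 in WT1 and 13.02 in WT2. The IL-4 effect was 0.62 in KO1, 0.52 in KO2, 0.74 in WT1 and 0.70 in WT2, a mean of 0.64 ± 0.09 (SD, n = 4 clones) or 1.56-fold. It did not pass over all probe sets in the fit with the clone as a block (adjusted p = 0.0921 from limma). With an intensity trend and robust eBayes it passed (adjusted p = 0.00215 from limma), and over all alternatives the adjusted p ranged from 0.00215 to 1.00. KO minus WT was 0.56 ± 0.39 without IL-4 (SE, adjusted p = 0.993 from limma) and 0.41 under IL-4, and WT1 lay between the KO arrays in both.

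Ptgs2, which encodes the inducible cyclooxygenase, was set apart by its spread between the WT clones. Under IL-4 its signal was 15.14 in KO1, 15.67 in KO2, 15.99 in WT1 and 17.36 in WT2. Untreated, it was 14.63 in KO1, 15.36 in KO2, 13.91 in WT1 and 16.83 in WT2. WT2 was thus the brightest clone under both treatments, and WT1 was the dimmest without IL-4 only. WT2 minus WT1 was 1.37 with IL-4 and 2.92 without it, while KO2 minus KO1 was 0.54 and 0.73. The KO minus WT difference without IL-4 was −0.37 ± 0.84 (SE, adjusted p = 0.993 from limma), and without WT2 it turned to 1.08. With IL-4 both KO arrays lay below both WT arrays, and KO minus WT was −1.27.

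Ptgs2 was higher with IL-4 in all 4 clones, by 0.50 in KO1, 0.31 in KO2, 2.08 in WT1 and 0.53 in WT2. The mean was 0.86 ± 0.82 (SD, n = 4 clones, adjusted p = 0.367 from limma), and without WT1 it was 0.45. Pla2g4a and Ptgs2 are neighbours on chromosome 1, with a pseudogene and a noncoding RNA gene annotated between them. They went opposite ways between the WT clones, since Pla2g4a had a WT2 minus WT1 difference of −0.99 with IL-4 and −0.95 without it.

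Ptges, the gene of the inducible microsomal prostaglandin E synthase, was above background on all 8 arrays, though by little on the untreated WT1 array. Under IL-4 its signal was 8.09 in KO1 and 8.34 in KO2, against 7.44 in WT1 and 7.60 in WT2. Untreated, it read 8.01 in both KO clones, against 6.98 in WT1 and 7.75 in WT2. The KO arrays lay above the WT arrays under both treatments. KO minus WT was 0.69 with IL-4 and 0.65 ± 0.28 without it (SE, adjusted p = 0.993 from limma). The difference without IL-4 was 0.26 when WT1 was left out and 1.03 when WT2 was. The IL-4 effect was 0.18 ± 0.27 (SD, n = 4 clones, adjusted p = 0.873 from limma). Tbxas1, the thromboxane synthase gene, was below background on all arrays, between 5.51 and 6.51, and its differences are likewise not read as changes.

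**Figure D3:**
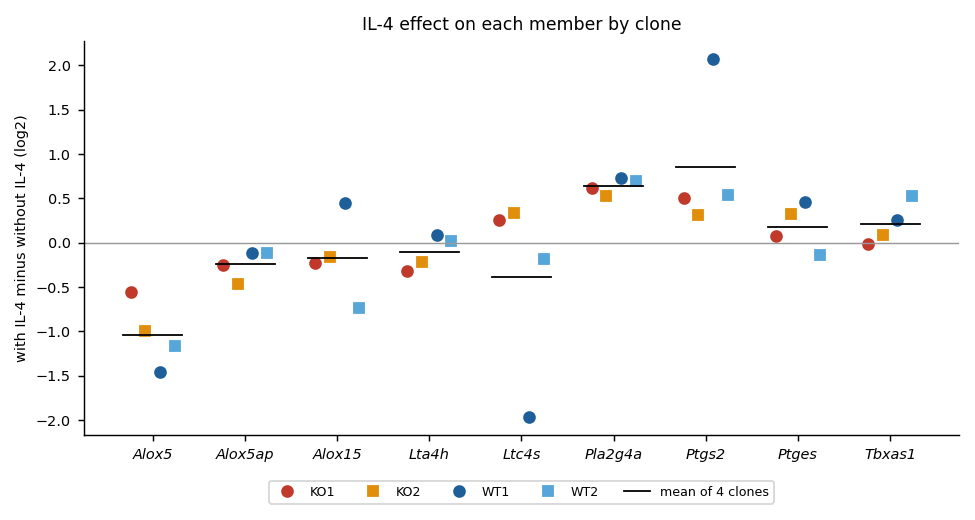
IL-4 effect (with minus without IL-4, log2, vertical axis) on each member, with a point for each of the 4 clones and a line at their mean. Alox5 and Alox5ap lie below 0 in all clones, as do 8.44% of all probe sets. Pla2g4a and Ptgs2 lie above 0 in all clones, as do 7.93%. WT1 stands apart for Ltc4s (−1.97) and Ptgs2 (2.08).

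Over the 9 measured members, both KO arrays lay above both WT arrays for 5 without IL-4 (Alox5, Alox5ap, Lta4h, Ltc4s and Ptges), where 14.1% of all probe sets did so, and for 3 with IL-4, where 17.9% did. Both KO arrays lay below both WT arrays for none without IL-4, against 16.3% of all probe sets, and for 2 with IL-4 (Lta4h and Ptgs2), against 15.3%. The median KO minus WT difference of the members was 0.38 with IL-4 and 0.56 without it, beside medians of 0.02 and 0.0003 over all probe sets. Alox5 is part of these counts, and it was chosen for such a difference.

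Under IL-4 the members had no common direction. With IL-4, 2 of 9 were higher in all 4 clones (Pla2g4a and Ptgs2), as were 7.93% of all probe sets, and 2 were lower in all 4 (Alox5 and Alox5ap), as were 8.44%. Of the 8 members other than Alox5, none passed the threshold of limma for the IL-4 effect over the 4 clones, where 0.766% of all probe sets did. At an unadjusted p under 0.05 there were 2 (Pla2g4a and Ptgs2), against 8.23% of all probe sets. None of the 8 passed for the IL-4 effect in KO cells (0.0315% of all probe sets), in WT cells (0.036%), for the difference of these effects (0%) or for KO minus WT without IL-4 (0.018%). At an unadjusted p under 0.05 there were 0 for the IL-4 effect in KO cells (2.77% of all probe sets), 1 in WT cells (3.85%) and 1 for the difference of effects (1.52%), Ltc4s in both, and 2 for KO minus WT without IL-4 (4.41%), Ltc4s and Ptges. Precision is limited by 2 clones of each genotype, and a miss of the threshold does not show that values were alike.

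The rest of the eicosanoid pathway was read from 9 lists with 69 measured genes, of which 36 were above background on any array and 28 on all 8. In KO minus WT without IL-4 none passed the threshold, with 9 at an unadjusted p under 0.05 (4.41% of all probe sets), and the median was 0.06, beside 0.0003 over all probe sets. These 9 include Prxl2b, below background on all arrays and so not read as a change, and Hpgd, above background on 1 array. Nearest to the leukotriene synthesis genes, Mgst2, a microsomal glutathione transferase that can also make leukotriene C4, read under IL-4 14.10 in KO1 and 13.77 in KO2, against 12.28 in WT1 and 12.25 in WT2. Untreated, Mgst2 read 13.89 and 13.87 in the KO clones, against 12.95 and 12.31 in the WT clones. KO minus WT was 1.67 with IL-4 and 1.25 ± 0.26 without it (SE, adjusted p = 0.652 from limma), with no overlap in either.

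Of 12 other phospholipase A2 genes measured, 5 were above background on any array. Pla2g12a, a secreted phospholipase A2, read 7.94 in KO1, 7.15 in KO2, 7.85 in WT1 and 7.31 in WT2 under IL-4, against 6.48 in KO1, 6.30 in KO2, 6.86 in WT1 and 6.21 in WT2 untreated. Of the untreated arrays, those of KO1, KO2 and WT2 were below background. The signal was higher with IL-4 in each clone and rose by 1.10 ± 0.15 over the 4 clones (SE, adjusted p = 0.0147 from limma). Pla2g12a was the 1 of 69 measured list genes that passed for this effect, beside 0.766% of all probe sets, and none passed in another comparison. It did not pass without KO1 (adjusted p = 0.127 from limma) or without KO2 (adjusted p = 0.0614 from limma), nor with the clone as a random replicate block (0.137) or with no replicate block (0.264), and the range over all alternatives was 0.0075 to 0.264. With both untreated KO arrays below background, the signal in KO cells was at least 1.77-fold higher with IL-4. This bound was 1.35-fold without KO1 and 2.33-fold without KO2. Pla2g5, another secreted form, had the largest positive KO minus WT difference without IL-4 among list genes with a compared group above background on both arrays, at 2.25 ± 0.90 (SE, adjusted p = 0.993 from limma). It read 10.04 in KO1 and 8.47 in KO2, against 5.86 in WT1 (below background) and 8.16 in WT2, so that KO1 and WT1 made most of it.

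Among receptors, Cysltr1, which binds cysteinyl leukotrienes, was the 1 of 5 measured leukotriene receptors above background, on all arrays, with KO minus WT of −0.31 with IL-4 and 0.17 without it. It was chosen after its values were seen. Ptger4, a prostaglandin E2 receptor, had both KO arrays below background under IL-4, which bounds it as at least 2.50-fold lower in KO. This rests on WT2, since the bound was 1.25-fold without WT2 and 5.00-fold without WT1. It read 6.68 in KO1 and 6.32 in KO2, against 7.06 in WT1 and 9.06 in WT2. In untreated cells its KO minus WT difference was −1.63 ± 0.56 (SE, adjusted p = 0.993 from limma). The other 5 lipoxygenase genes measured were all below background, like Alox15.

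**Figure D4:**
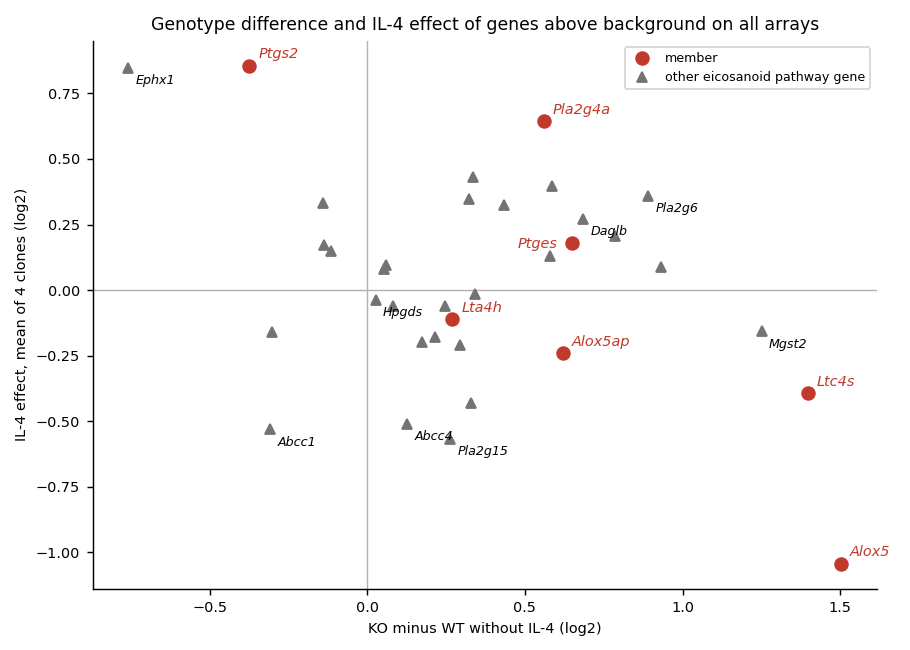
KO minus WT difference without IL-4 (log2, horizontal axis) against the IL-4 effect averaged over the 4 clones (log2, vertical axis), for the 7 members and 28 other eicosanoid pathway genes above background on all arrays. Alox5 (1.50 and −1.04) lies at the lower right, with Ltc4s (1.40 and −0.39) and Mgst2 (1.25) next along the horizontal axis. Genes below background on any array are not shown, among them Pla2g5 and Ptger4. Their KO minus WT differences without IL-4 were larger in size than that of Alox5, at 2.25 and −1.63.

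Over the 8 arrays, 8465 named probe sets above background on at least 4 arrays were ranked by their Pearson correlation with Alox5. The 5 most alike were Stom, a membrane protein gene (r = 0.976), Serpinb10, a serine protease inhibitor gene (0.973), Tcf4, a transcription factor gene (0.973), Ap1m1, an adaptor protein subunit (0.972), and Themis2, a gene of immune receptor signalling (0.964). Of these, Serpinb10 had a wider range than Alox5. Under IL-4 it read 12.17 in KO1 and 12.34 in KO2, against 9.36 in WT1 and 7.99 in WT2, and 13.25 and 14.09 in the KO clones without IL-4, against 11.06 and 10.13 in the WT clones. By Spearman's rho, 11 probe sets tied at the highest value (0.976), Serpinb10 and Themis2 among them, so that no first 5 can be named. Stom, Tcf4 and Ap1m1 had a rho of 0.952. Among the members, Ltc4s (r = 0.879) and Alox5ap (r = 0.796) were most like Alox5, and Ptgs2 was most unlike it (r = −0.623). The 8 arrays are pairs from 4 clones and not independent samples, so these correlations carry no p.

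**Figure D5:**
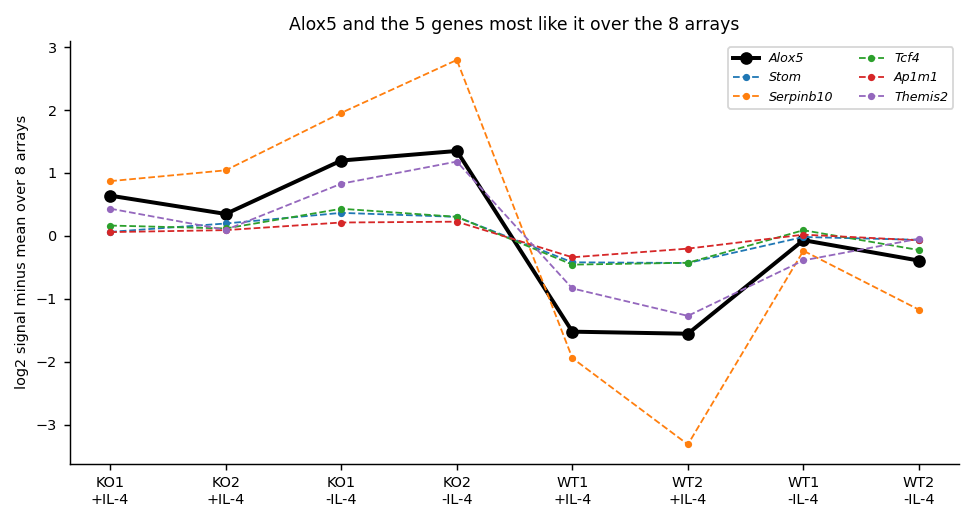
Log2 signal minus its mean over the 8 arrays (vertical axis) of Alox5 (heavy line) and of the 5 genes most like it, for each array. Serpinb10 spans more than Alox5 and the other 4 less; lines join arrays to show a gene and not an order.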

How the data were processed

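RNA from 4 RAW264 clones, each with and without IL-4, was hybridised to 8 Clariom S arrays. The authors used SST-RMA in Transcriptome Analysis Console 4.0 (RMA in the submitters' notes) and deposited linear intensities, whose log2 was taken here. After removal of 6640 controls from 28846 rows, 22206 probe sets were tested, of which 19572 carry 1 symbol. No genome build of the array annotation is given in the sources used here.

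The fit was made with limma 3.58.1 (R 4.3.3) as 4 group means without a block. For the IL-4 effect over the 4 clones, the clone was a block. Both arrays of a clone are paired by design, and their deviations from the group mean correlated at 0.161 (KO) and 0.354 (WT). P-values were adjusted over all probe sets of a comparison (Benjamini-Hochberg) with 0.05 as threshold. The code was tested on simulated data.

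The rule for named genes took all members, the 5 probe sets most like Alox5 and, from the 9 other pathway lists, genes past the threshold and the 2 with the largest change each way in a comparison, above background in a compared group. Not all are described. Members, lists and tests were chosen with earlier results of these data known. Where both arrays of a group were below background, a fold is a bound against that background. Other settings tried were quantile normalization, omission of the dimmest 40% of probe sets, trended robust eBayes, a clone block (fixed, random or none), a 2-fold rule at an unadjusted p under 0.05, omission of each clone, the highest antigenomic control as background and Spearman correlation.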

Additional observations from a re-analysis of the deposited data

Results flagged for a closer look

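In 4 of 35 members and list genes above background on all arrays (11.4%), the IL-4 effect went one way in both KO clones and the other way in both WT clones. Of all 8732 probe sets above background on all arrays, 564 (6.46%) did so. The difference of effects, KO minus WT, did not pass in any of them (adjusted p = 1.00 from limma for each). For Ltc4s, leukotriene C4 synthase, it was 1.37, with effects of 0.25 and 0.33 in KO clones, and of −1.97 and −0.19 in WT clones. For Lta4h, leukotriene A4 hydrolase, it was −0.32, with −0.32 and −0.22 in KO clones, and 0.08 and 0.02 in WT clones. For Hpgds, the hematopoietic prostaglandin D synthase, it was 0.41, with 0.02 and 0.31 in KO clones, and −0.41 and −0.07 in WT clones. For Daglb, a diacylglycerol lipase, it was −0.70, with −0.03 and −0.13 in KO clones, and 0.71 and 0.53 in WT clones.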

How the results depend on the processing

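How many probe sets passed depended on the setting. Quantile normalization gave 4 in place of 7 for IL-4 in KO cells and 2 in place of 4 for untreated KO minus WT. Omitting the dimmest 40% gave 4 for IL-4 in KO cells, 5 in place of 8 for IL-4 in WT cells, 1 for untreated KO minus WT and 3 in place of 7 for KO minus WT under IL-4. Trended robust eBayes made 12 calls for IL-4 in KO cells and 367, in place of 170, over the 4 clones. As a fixed replicate block the clone made 25 calls in KO and 35 in WT cells for IL-4, as a random replicate block 13 and 13. Over the 4 clones a random replicate block made 55 calls and no replicate block 37. The 2-fold rule made 159 (IL-4 in KO), 214 (IL-4 in WT), 110 (difference of effects, in place of 0), 172 (untreated KO minus WT) and 176 calls (KO minus WT under IL-4). With 1 clone omitted the counts ranged from 0 to 47 (IL-4 in KO), 0 to 26 (IL-4 in WT), 0 to 100 (untreated KO minus WT), 0 to 143 (KO minus WT under IL-4) and 52 to 131 (4 clones). Those of 0 or 1 arose without KO1 or KO2. The cause of these shifts was not tested.

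Of 78 gene values, 13 turned when a clone was left out and none in another setting, and none of these 13 was past the threshold. For Alox15, below background, the ranges were −0.74 to 0.45 (IL-4 in WT), −0.64 to 0.54 (difference of effects), −0.34 to 0.29 and −0.35 to 0.21 (untreated KO minus WT, and KO minus WT under IL-4) and −0.38 to 0.0204 (4 clones). For Tbxas1, also below background, they were −0.0139 to 0.0860 (IL-4 in KO) and −0.31 to 0.32 (KO minus WT without IL-4). Ltc4s ranged from −0.63 to 0.13 (4 clones), Pla2g4a from −0.0819 to 0.91 (KO minus WT with IL-4), Ptgs2 from −1.83 to 1.08 (KO minus WT without IL-4), Ptges from −0.14 to 0.46 (IL-4 in WT) and −0.26 to 0.35 (difference of effects), and Ephx1 from −1.48 to 0.31 (KO minus WT with IL-4). Against the highest antigenomic control, 55 of the member signals in place of 56 were above background. By Spearman's rho, the 5 genes most like Alox5 had values of 0.952 to 0.976, and 11 probe sets tied at the highest value.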

Other observations

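Hpgd, which encodes the enzyme that inactivates prostaglandins, was above background on 1 array alone, that of WT1 without IL-4, at 7.68. On the other arrays it read 3.55 to 4.92. This gene was chosen after its values were seen.

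Ephx1, a microsomal epoxide hydrolase gene, read higher with IL-4 in all 4 clones, by a mean of 0.85 (adjusted p = 0.107 from limma), and Pla2g15, a lysosomal phospholipase, differed by −0.57 (adjusted p = 0.184 from limma). With trend and robust both passed (adjusted p = 0.0117 and 0.0386 from limma), over a range of 0.0117 to 1.00 for Ephx1 and of 0.0386 to 0.856 for Pla2g15.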
